A study of Drosophila melanogaster with 15 samples.

Results

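Intermediate introns, taken here as introns longer than 100 bp and shorter than 1000 bp, were followed in the RNA of adult *Drosophila* heads after RNAi against the splicing factors PRP4 and PRP8. Introns were chosen by their length, by a junction listed with a single gene, and by a measured value, a total of at least 150 junction reads over the 15 libraries. The reads of all genotypes counted toward that minimum, so an intron could pass through 1 genotype alone. The rule found 6582 intermediate introns in 3284 genes among 23268 junctions of any length with the same depth, or 28.3%. The other junctions were 12662 introns of 100 bp or less and 4024 introns of 1000 bp or more. Heads were sequenced from *GMR > prp4* RNAi flies (replicates 6 to 10), *GMR > prp8* RNAi flies (replicates 11 to 15) and *GMR/+* controls (replicates 1 to 5), with 5 libraries of each genotype. Both RNAi transgenes are GD lines, and flies of all 3 genotypes, controls included, carried the GMR driver, which acts in the eye. The labels name no RNAi transgene in the controls. In each comparison with *GMR/+* the knockdown therefore cannot be told apart from the transgene and its genetic background. The whole head was taken, so each library also holds RNA from brain, fat body, muscle and other cells in which the driver does not act. All flies were 3 to 5 days old, were kept for 3 days or more under 12 h light and 12 h dark, and were collected at ZT12 according to the sample labels. The labels do not say how many flies went into a library.

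Introns are removed from pre-mRNA by the spliceosome, a large assembly of small nuclear RNAs and proteins. PRP8 is a core protein of the U5 particle and lies at the catalytic center, and PRP4 is a kinase that in human cells phosphorylates proteins of the tri-snRNP during activation of the spliceosome. Most fly introns are short and are thought to be recognized as a unit across the intron, whereas introns flanked by long sequence are recognized across the exon, and intermediate introns lie between these classes. A read that spans a junction comes from a molecule from which the intron was removed. The number of junction reads per read of the gene falls when the intron is kept, when another splice site is used, or when the flanking exon is skipped. It also falls, with no change in splicing, when reads of the gene rise from transcripts that do not hold the intron.

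The introns had a median length of 295.5 bp, with quartiles of 167 and 515 bp. By length, 2111 introns had fewer than 200 bp, 2728 had from 200 to under 500 bp and 1743 had 500 bp or more. In the Ensembl annotation 6397 of them (97.2%) were introns, and 185 were not. Of the annotated introns, 824 were the first intron of every transcript that holds them, 5307 were never the first and 266 were first in some transcripts only. The coding region held 5793 of the introns, the 5′ UTR 248 and the 3′ UTR 85, and the others lay in different parts of different transcripts, in non-coding RNA or outside the annotation. Another junction with at least 150 reads shared a splice site with 1250 of the introns. Up to 31 introns belonged to 1 gene, and 1482 genes had more than 1, so introns are not independent of each other. At the edges of the rule, 18 introns had exactly 150 reads and 25 junctions of the right length were left out with 149 reads. The shortest length allowed was that of 37 introns, and 36 junctions of 100 bp were left out. At the upper end 1 intron was 1 base short of the limit, and 4 junctions of 1000 bp were left out.

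Each library held between 1125560 and 1191025 reads on intermediate introns, which was 39.0% to 40.6% of its reads on junctions of a single gene. The gene counts of a library summed to between 11753627 and 11979892. The median intron had 494 reads over the 15 libraries, with quartiles of 268 and 1083.5, and the most used one, a 175 bp intron of *ninaE*, a gene with very high expression in photoreceptors, had 4997443. Of the 6582 introns, 6568 belonged to a gene in the table of gene counts and were tested. For introns with fewer than 300 reads the median standard deviation of log2 junction reads per gene read within a genotype was 0.41. It was 0.27 for introns with 300 to under 1000 reads and 0.16 for introns with 1000 reads or more, so small changes could be detected only in the deeper introns. For 11 introns the junction had more reads than the gene, whose count leaves out reads shared with an overlapping gene, and these values are not levels of splicing.

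Neither targeted gene passed the threshold in its own knockdown against *GMR/+*. The *prp4* gene, CG7028, had 128.8 ± 13.5 reads in *GMR > prp4* RNAi and 152 ± 10.7 reads in *GMR/+* (SD, n = 5 each; log2 fold change -0.23, adjusted p = 0.101 from edgeR). *Prp8* had 1351 ± 125 reads in *GMR > prp8* RNAi and 1451 ± 75.8 reads in *GMR/+* (log2 fold change -0.11, adjusted p = 0.278). The *GMR > prp8* RNAi libraries ranged from 1264 to 1572 reads on *Prp8*, and the highest was replicate 14. Without it they averaged 1296 ± 21.6 reads (SD, n = 4), with a log2 fold change of -0.16 against *GMR/+* (adjusted p = 0.0552 from edgeR). For *GMR > prp4* RNAi over *GMR > prp8* RNAi, the log2 fold change of *Prp8* was 0.20 (adjusted p = 0.103 from edgeR). It was 0.26 without replicate 14 (adjusted p = 0.00264 from edgeR), a library left out with its values known. The library labelled *GMR > prp8* RNAi replicate 14 stood apart from the other libraries of its label. Of the 34 intermediate introns that changed in *GMR > prp4* RNAi, this library lay within the range of the *GMR > prp4* RNAi libraries for 27 and within the range of the controls for 5. The other *GMR > prp8* RNAi libraries lay within the range of *GMR > prp4* RNAi for 9 to 15 and within the range of the controls for 12 to 17. Values for *GMR > prp8* RNAi include this library unless stated, and the class measures, the counts of changed introns and most of the introns named are also given without it. The 6 photoreceptor marker genes, *ninaE*, *ninaC*, *trp*, *inaD*, *norpA* and *chp*, summed to 1024850 to 1148457 reads in *GMR > prp4* RNAi, 927704 to 1119345 in *GMR > prp8* RNAi and 1061161 to 1124758 in *GMR/+*. The 5 glial markers *repo*, *nrv2*, *Gs2*, *moody* and *Eaat1* summed to 42125 to 45761 reads in *GMR > prp4* RNAi, 42827 to 49029 in *GMR > prp8* RNAi and 47874 to 53654 in *GMR/+*. Fat body markers ranged more widely, from 26280 to 202737 reads in *GMR > prp4* RNAi, from 15527 to 93092 in *GMR > prp8* RNAi and from 33136 to 76084 in *GMR/+*. The part that such shifts have in the results for single introns was not tested, and in bulk RNA fewer cells of a type cannot be told apart from less RNA per cell.

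To see whether intermediate introns as a class were spliced less in either knockdown, their reads were first pooled in each library. The reads of all intermediate introns were 0.145 per read of their genes in *GMR > prp4* RNAi, 0.143 in *GMR > prp8* RNAi and 0.145 in *GMR/+*. On the log2 scale these values were -2.79 ± 0.02, -2.81 ± 0.02 and -2.79 ± 0.02 (SD, n = 5 each), and the libraries of the 3 genotypes overlapped. The median intron had 37.9 junction reads per 1000 reads of its gene in *GMR > prp4* RNAi, 38.001 in *GMR > prp8* RNAi and 37.7 in *GMR/+*. The pooled level thus differed between genotypes by less than the spread between libraries. Without replicate 14 the pooled log2 difference between *GMR > prp8* RNAi and *GMR/+* was -0.01. Introns with many reads weigh most in this pooling, and the 175 bp intron of *ninaE* alone held 4997443 reads. After the 100 most-read genes were dropped, the log2 difference from *GMR/+* went from 0.0025 to -0.0207 in *GMR > prp4* RNAi. It went from -0.0162 to 0.0047 in *GMR > prp8* RNAi, and from 0.0187 to -0.0254 between the knockdowns. The pooled values therefore show no direction for the class as a whole.

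Intermediate introns were then set against other introns of the same genes. In 2426 genes with both, the log2 ratio of reads per intermediate intron to reads per intron of 40 to 100 bp averaged -0.35 ± 0.03 in *GMR > prp4* RNAi, -0.34 ± 0.01 in *GMR > prp8* RNAi and -0.34 ± 0.02 in *GMR/+* (SD, n = 5 each). In 1271 genes with introns of 1000 bp or more, the log2 ratio to those long introns averaged 0.42 ± 0.02, 0.41 ± 0.02 and 0.42 ± 0.02. In all genotypes, then, an intermediate intron had fewer reads than a short intron and more reads than a long intron of the same gene. Among the intermediate introns themselves, those of 500 bp or more had a lower log2 level of junction reads per gene read than those under 200 bp. This difference averaged -0.53 ± 0.02 in *GMR > prp4* RNAi, -0.54 ± 0.00353 in *GMR > prp8* RNAi and -0.55 ± 0.02 in *GMR/+*. Introns were not matched by gene or transcript here, so the difference does not show how well longer introns were spliced. The order by length was present in every library, and the genotypes overlapped in all 3 measures. Without replicate 14 the differences between *GMR > prp8* RNAi and *GMR/+* were -0.0014, -0.0069 and 0.01 in these measures.

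A further measure, chosen after the data had been seen, used 73 intermediate introns that lie wholly inside an annotated exon of the same gene. Only spanning exons with a row of their own in the deposited exon counts could be used. For these introns, junction reads were divided by the reads of the spanning exon. Those reads also include its flanking sequence, so the ratio does not measure retention alone. The mean log2 ratio was -4.64 ± 0.02 in *GMR > prp4* RNAi, -4.59 ± 0.03 in *GMR > prp8* RNAi and -4.55 ± 0.03 in *GMR/+* (SD, n = 5 each). Libraries of *GMR > prp4* RNAi lay between -4.66 and -4.60 and those of *GMR/+* between -4.58 and -4.52, without overlap. The difference between *GMR > prp4* RNAi and *GMR/+* was -0.09, and 48 of the 73 introns were lower. Between *GMR > prp8* RNAi and *GMR/+* the difference was -0.04, with 39 of 73 introns lower, and the libraries overlapped. It was -0.03 without replicate 14. When 532 introns with spanning exons in or outside the annotation were used, the difference of *GMR > prp4* RNAi from *GMR/+* was -0.06.

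**Figure D1:**
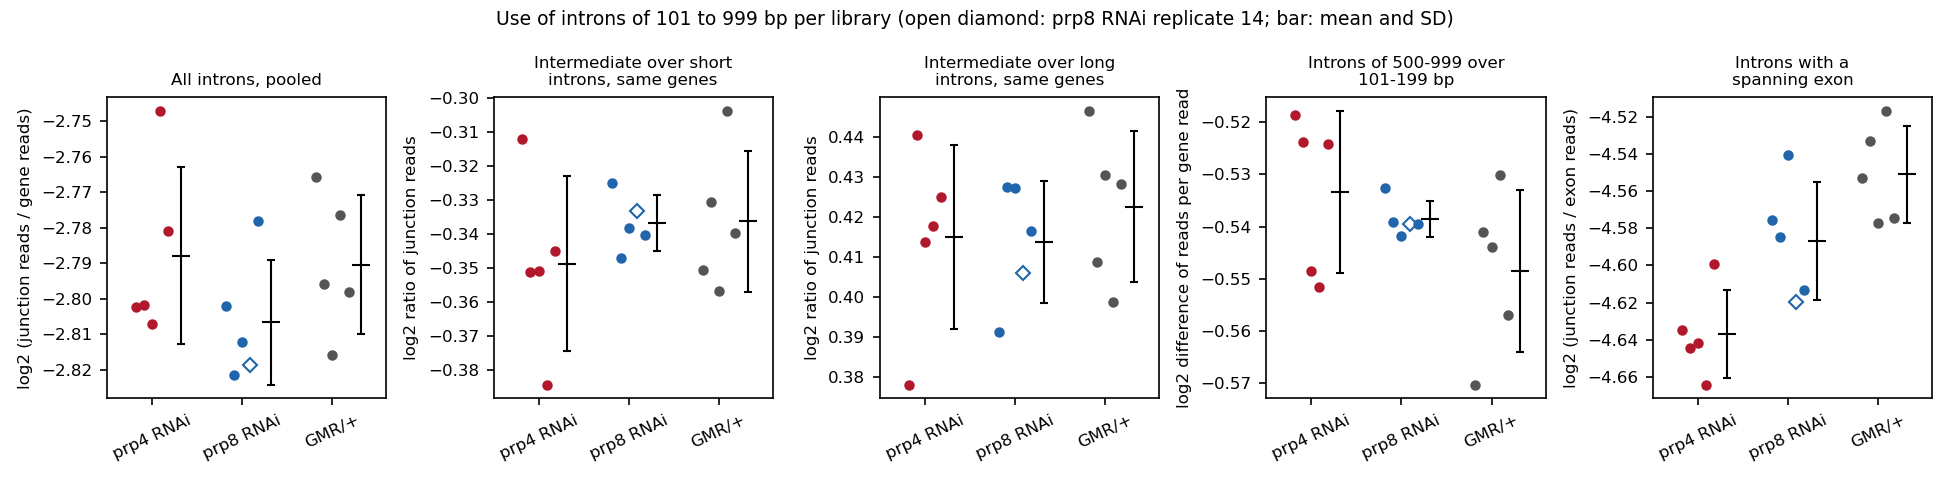
Use of intermediate introns in each library, on log2 scales. Points are libraries of *GMR > prp4* RNAi, *GMR > prp8* RNAi (open diamond, replicate 14) and *GMR/+*, and bars give the mean and SD of 5 libraries. The genotypes overlap in the first 4 panels, whereas for the 73 introns with a spanning exon the *GMR > prp4* RNAi libraries (-4.66 to -4.60) lie below the *GMR/+* libraries (-4.58 to -4.52).

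Single introns were tested in one model over 23237 junctions of any length, with p-values adjusted over all of them. Between *GMR > prp4* RNAi and *GMR/+*, 34 of 6568 intermediate introns (0.518%) passed an adjusted p of 0.05, against 0.34% of all junctions, 0.174% of introns of 100 bp or less and 0.572% of introns of 1000 bp or more. Of these 34 introns, in 28 genes, 18 had more junction reads per gene read in *GMR > prp4* RNAi, a direction that 0.168% of all junctions took, and 16 had fewer, against 0.172%. The median log2 fold change was -0.01 over intermediate introns and -0.01 over all junctions. The libraries of the groups did not overlap for 116 intermediate introns (1.77%), against 1.47% of all junctions. A total of 531 introns had an unadjusted p under 0.05. Between *GMR > prp8* RNAi and *GMR/+*, 31 introns (0.472%) passed, against 0.293% of all junctions. Of these, 16 had more reads, against 0.168% of all junctions, and 15 had fewer, against 0.125%. The groups did not overlap for 1.58%, against 1.36% of all junctions. The same 5 control libraries served in both comparisons. Between the knockdowns, 18 introns (0.274%) passed, against 0.176% of all junctions, of which 8 were higher in *GMR > prp4* RNAi, against 0.0775% of all junctions, and 10 were lower, against 0.099%. The groups did not overlap for 1.14%, against 0.981% of all junctions. The junction had more reads than its gene at 2 of the 34, 1 of the 31 and 2 of the 18 introns. Their values are not levels of splicing, and the 2 in *GMR > prp4* RNAi were among those with more reads.

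Some of these introns had fewer than 50 reads in the lower group or fewer than 100 in the 10 libraries outside the higher one. By this criterion they are counted as reaching the minimum of 150 reads mainly through the group where they were higher. Those with few reads only in the lower group could pass without the higher one. Introns that met the criterion were 7 of the 34, 8 of the 31 and 4 of the 18, and their values are given below as a description, with no test. The other 27, 23 and 14 were 13 with more and 14 with fewer reads in *GMR > prp4* RNAi, 11 and 12 in *GMR > prp8* RNAi, and 6 and 8 between the knockdowns.

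The counts of changed introns depended on single libraries. Without *GMR/+* replicate 5, 21 introns passed between *GMR > prp4* RNAi and *GMR/+*. Between *GMR > prp8* RNAi and *GMR/+*, 40 introns passed without the library labelled replicate 14, 27 of them among the 31, whereas 14 passed without replicate 13, 19 without replicate 15 and 20 without *GMR/+* replicate 4. Between the knockdowns, 44 introns passed without replicate 14, all 18 among them, and 31 without *GMR > prp4* RNAi replicate 6. That number was 9, 10 and 8 without *GMR > prp4* RNAi replicates 7, 8 and 10, and 5, 6, 4 and 9 without *GMR > prp8* RNAi replicates 11, 12, 13 and 15.

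The introns that passed were set against what is known of their position. In *GMR > prp4* RNAi against *GMR/+*, 17 of 1249 introns that share a splice site with another used junction (1.36%) passed, against 17 of 5319 without one (0.32%). Among introns of *GMR > prp8* RNAi against *GMR/+* these numbers were 21 (1.68%) and 10 (0.188%), and between the knockdowns 12 (0.961%) and 6 (0.113%). In *GMR > prp4* RNAi, all 7 introns that reached the read minimum mainly through their higher group were among those sharing a splice site. Most such introns in *GMR > prp8* RNAi and between the knockdowns shared one as well. The other junction had to reach the same read minimum. The shares with and without a shared site therefore cannot be compared with each other. Introns outside the annotation passed in 6 of 183 cases (3.28%) in *GMR > prp4* RNAi and in 8 (4.37%) in *GMR > prp8* RNAi. Most of those that passed had reached the read minimum mainly through their higher group, among them the 646 and 649 bp introns of CG43897 and the 159 bp junction of *ninaE*. These shares therefore cannot be compared with those of annotated introns. By length, 11 of 2107 introns under 200 bp, 12 of 2720 from 200 to under 500 bp and 11 of 1741 of 500 bp or more passed in *GMR > prp4* RNAi. Of first introns 5 of 822 passed there, and of internal introns 23 of 5299. No test of these differences was made, and the shares are a description.

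The gene count is the denominator of the readout, so changed introns were set beside changes in the count of their genes. Of the genes that hold intermediate introns, 344 of 3272 (10.5%) changed in count in *GMR > prp4* RNAi and 175 of 3272 (5.35%) in *GMR > prp8* RNAi, against 9.63% and 4.73% of all genes tested. Between the knockdowns 37 of 3271 such genes (1.13%) differed in count, against 0.932% of all genes tested, and 283 without replicate 14. Of the 34 introns that changed in *GMR > prp4* RNAi, 9 lay in a gene with a changed count, as did 7 of the 31 in *GMR > prp8* RNAi. These numbers count introns, of which the 34 lay in 28 genes and the 31 in 26 genes, whereas 10.5% and 5.35% count genes. The shares were therefore not compared. The absolute log2 fold change was at least 1 for 13 of the 34 and 12 of the 31.

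**Figure D2:**
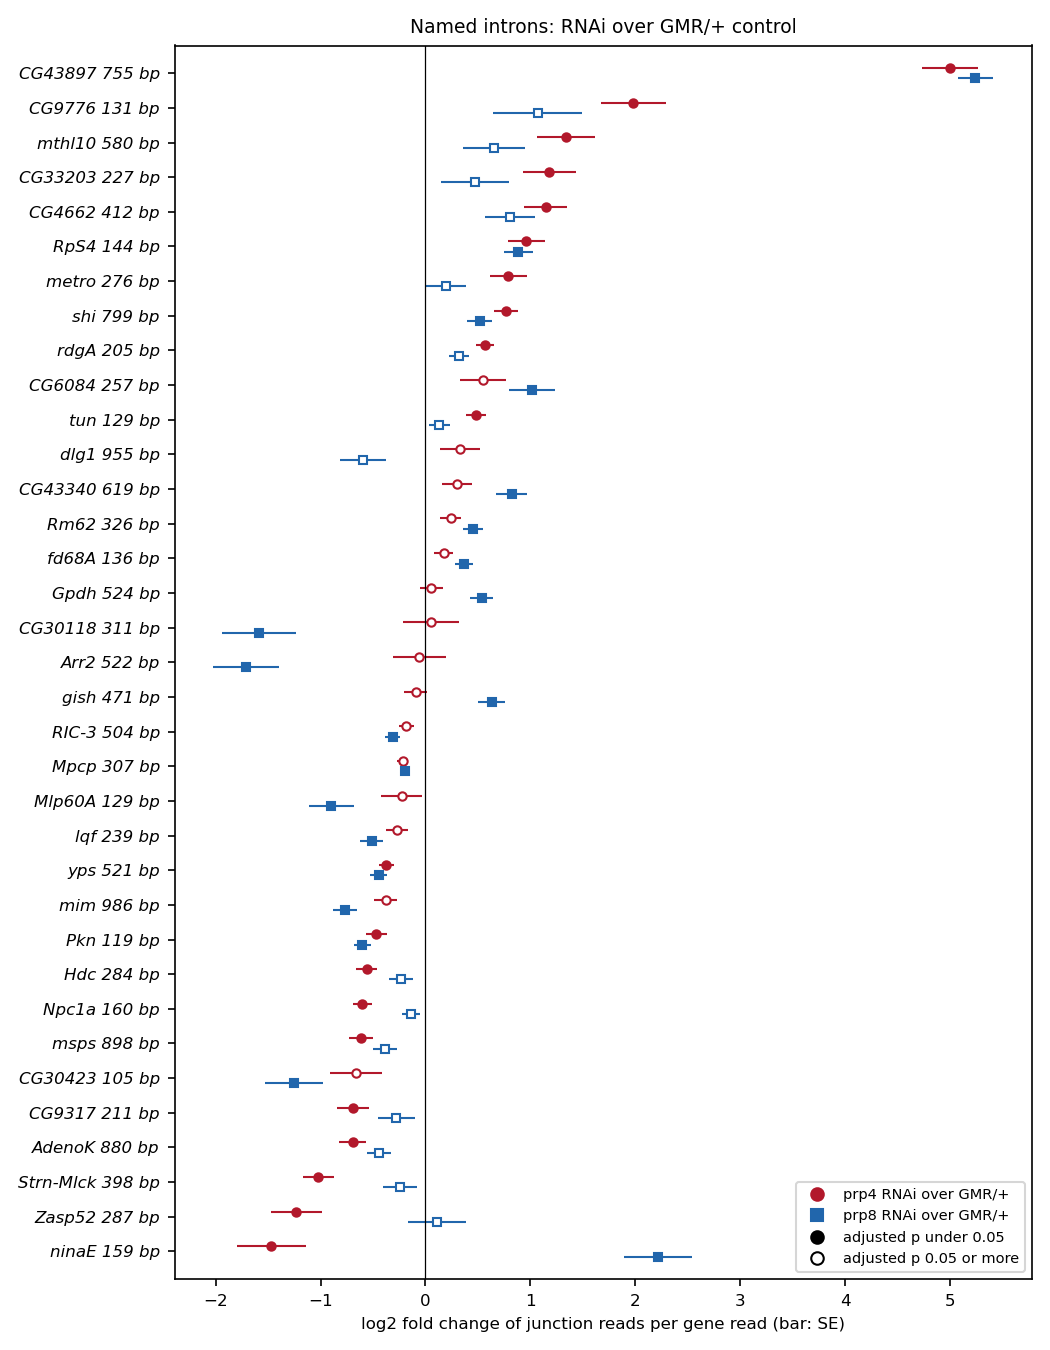
Log2 fold change of junction reads per gene read for introns named by rule, over *GMR/+*, for *GMR > prp4* RNAi (red circles) and *GMR > prp8* RNAi (blue squares), with bars for the standard error and filled symbols for an adjusted p under 0.05, including introns that reached the read minimum mainly through the group where they were higher. Values run from 5.00 and 5.24 for the 755 bp intron of CG43897 to -1.47 for the 159 bp intron of *ninaE* in *GMR > prp4* RNAi. In *GMR > prp8* RNAi they reach down to -1.71 for the 522 bp junction of *Arr2*, and that *ninaE* intron stands at 2.21.

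The change that stood out in both knockdowns was in CG43897, a gene with no role given here. Both groups also differ from *GMR/+* by a GD transgene and its background, whose part in this change was not tested. Its annotated 755 bp intron (3L, 9831441 to 9832195, coding region) had 19.1, 21.5, 20.8, 8.596 and 16.3 junction reads per 1000 gene reads in *GMR > prp4* RNAi. It had 22.1, 19.3, 19.8, 20.1 and 21.4 in *GMR > prp8* RNAi and 0.574, 0.505, 0.906, 0.429 and 0.290 in *GMR/+*. Every RNAi library, replicate 14 included, was above every control library. The log2 fold change was 5.00 ± 0.27 (SE) in *GMR > prp4* RNAi and 5.24 ± 0.17 in *GMR > prp8* RNAi, from edgeR, and 5.25 in *GMR > prp8* RNAi without replicate 14. The controls had 3 to 8 reads per library on this intron, 25 in all, so it passed the read minimum through the RNAi libraries and these values are a description.

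The neighboring splice sites of CG43897 moved with it. The 758 bp intron, which starts at the same base and ends at 9832198, had 6.71 ± 0.723 reads per 1000 gene reads in *GMR > prp4* RNAi, 6.73 ± 0.588 in *GMR > prp8* RNAi and 11.4 ± 1.02 in *GMR/+* (SD, n = 5 each). The log2 fold change was -0.76 in each knockdown, without overlap (edgeR, adjusted p = 0.000372 and 5.88e-05), and the value for *GMR > prp8* RNAi was -0.76 without replicate 14 as well. The 755 bp form made up 70.6 ± 8.55% of the reads of the pair in *GMR > prp4* RNAi, 75.3 ± 2.06% in *GMR > prp8* RNAi and 4.57 ± 1.92% in *GMR/+*. Introns of 649 and 646 bp just upstream, both outside the annotation and both starting at 9830786, were also seen almost only in the RNAi libraries. The 649 bp intron had 36 to 118 reads per library in *GMR > prp4* RNAi, 120 to 153 in *GMR > prp8* RNAi and 0 to 3 in *GMR/+*, and the 646 bp intron had 4 to 32, 19 to 44 and 0 to 2 reads. No fold change is given for these, since control libraries were at 0, and they too passed the minimum through the RNAi libraries. The count of the gene did not pass the threshold in either knockdown, with log2 fold changes of -0.12 (adjusted p = 0.267) and 0.03 (adjusted p = 0.799).

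Among introns of genes that act in photoreceptors and at synapses, 3 of *rdgA* and *shi* had more junction reads in *GMR > prp4* RNAi. *rdgA* encodes the diacylglycerol kinase of the phototransduction cascade. Its 205 bp intron (X, 9024419 to 9024623) had 42.9, 41.7, 39.6, 42.1 and 39.1 reads per 1000 gene reads in *GMR > prp4* RNAi, against 26.6, 27.6, 28.4, 25.5 and 30.9 in *GMR/+*. The groups did not overlap, and the log2 fold change was 0.56 ± 0.09 (SE, adjusted p = 0.000453 from edgeR). The *GMR > prp8* RNAi libraries, at 29.8 to 38.1, overlapped with the controls and did not pass the threshold against *GMR/+* (log2 fold change 0.32, adjusted p = 0.248, and 0.29 without replicate 14). The intron is coding in some transcripts and lies in the 3′ UTR of others.

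*shi* encodes dynamin, the GTPase that pinches off synaptic vesicles. Its 799 bp intron (X, 15899456 to 15900254) had 27.0, 25.6, 21.8, 25.2 and 26.5 reads per 1000 gene reads in *GMR > prp4* RNAi and 18.0, 22.3, 20.6, 23.1 and 22.0 in *GMR > prp8* RNAi, against 13.8, 18.8, 13.3, 14.7 and 13.5 in *GMR/+*. All *GMR > prp4* RNAi libraries were above the highest control, which was replicate 2, and 1 *GMR > prp8* RNAi library was below it. The log2 fold changes were 0.76 ± 0.11 (adjusted p = 0.000372) and 0.52 ± 0.12 (adjusted p = 0.0384), and 0.48 for *GMR > prp8* RNAi without replicate 14 (adjusted p = 0.12). An alternative 2088 bp intron starts at the same base, and the 799 bp form made up 85.2 ± 1.63% of the reads of the pair in *GMR > prp4* RNAi, 79.1 ± 5.14% in *GMR > prp8* RNAi and 69.7 ± 5.12% in *GMR/+*. The 369 bp intron just upstream, which the naming rule does not cover and which was picked with its values known, rose in *GMR > prp4* RNAi as well (30.4 ± 1.77 against 21.6 ± 3.23 reads per 1000 gene reads, log2 fold change 0.49, adjusted p = 0.0212), a call kept in 5 of the 10 fits with a library left out. With the other junctions of the gene as denominator, the values were 0.46 for the 799 bp intron in *GMR > prp8* RNAi (adjusted p = 0.516) and 0.42 for the 369 bp intron (adjusted p = 0.5).

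The intron of *ninaE* that differed was not the main one. A 159 bp junction outside the annotation (3R, 19887224 to 19887382) begins at the first base of the 175 bp intron described above and ends before it. It had 2, 5, 5, 4 and 5 reads in *GMR > prp4* RNAi, 57, 66, 60, 7 and 60 reads in *GMR > prp8* RNAi and 13, 14, 7, 14 and 12 reads in *GMR/+*. The 7 reads of *GMR > prp8* RNAi belong to the library labelled replicate 14, and the other 4 libraries of that label were above all others. Of its 331 reads, 250 came from *GMR > prp8* RNAi and 81 from the other 10 libraries, so it passed the read minimum through the genotype where it was high and is given as a description. Log2 fold changes were -1.47 ± 0.33 in *GMR > prp4* RNAi and 2.21 ± 0.32 in *GMR > prp8* RNAi (SE), and -3.68 ± 0.41 between the knockdowns. Without replicate 14 they were 2.54 for *GMR > prp8* RNAi and -4.00 between the knockdowns. This form was at most 0.0222% of the reads of the pair in any library, and the 175 bp intron itself had log2 fold changes of 0.05 in *GMR > prp8* RNAi and 0.00083 between the knockdowns, far from the threshold.

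Sterol transport is represented by *Npc1a*, whose product moves cholesterol out of late endosomes. The gene has a pair of annotated coding introns of 160 and 172 bp that start at the same base (2L, 10217181) and end at 10217340 and 10217352. The 160 bp intron had 112, 93.4, 103, 78.1 and 96.9 reads per 1000 gene reads in *GMR > prp4* RNAi, against 153, 157, 128, 153 and 142 in *GMR/+*, and the 172 bp intron had 61.0, 56.4, 59.0, 51.4 and 53.6 against 39.9, 43.3, 25.1, 38.8 and 33.7. The groups did not overlap for either intron, and the introns changed in opposite directions, with log2 fold changes of -0.60 ± 0.09 (adjusted p = 0.000372) and 0.64 ± 0.12 (adjusted p = 0.0073). The 172 bp form made up 36.9 ± 1.79% of the pair in *GMR > prp4* RNAi, 21.5 ± 8.75% in *GMR > prp8* RNAi and 19.6 ± 1.99% in *GMR/+* (SD, n = 5 each). In the library labelled *GMR > prp8* RNAi replicate 14 the introns had 100.7 and 58.7 reads per 1000 gene reads, whereas the other 4 libraries of that label averaged 142 ± 11.1 and 30.6 ± 6.05. A further intron of 376 bp in *Npc1a* did not pass the threshold (log2 fold change 0.21).

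Of 79 tested introns of muscle genes, 3 (3.8%) passed the threshold in *GMR > prp4* RNAi, all with fewer reads, against 0.172% of all junctions in that direction. These were the 398 and 405 bp introns of *Strn-Mlck* and a junction of *Zasp52* that reached the read minimum mainly through its higher group. The share therefore does not describe muscle genes as a set. The median log2 fold change over the 79 was -0.02, against -0.01 over all junctions. *Strn-Mlck*, a kinase of the titin-like family in muscle, had 15.0, 11.9, 10.8, 15.6 and 12.9 reads per 1000 gene reads on its 398 bp intron (arm 2R) in *GMR > prp4* RNAi, against 27.4, 31.5, 23.4, 23.4 and 28.1 in *GMR/+*. No library of one group reached the other, and the log2 fold change was -1.02 ± 0.15 (adjusted p = 0.000332). Of *GMR > prp8* RNAi, replicate 14 had 11.4 and the other 4 libraries averaged 25.7 ± 1.77. The second *Strn-Mlck* intron, a first intron of 405 bp in the 5′ UTR, was singled out with its values known and had 4.51 reads per 1000 gene reads on average in *GMR > prp4* RNAi and 11.2 in *GMR/+* (log2 fold change -1.31, adjusted p = 0.0087), with 1 library of each group in the range of the other. *Zasp52*, a protein of the Z-disc, had 1.36, 2.30, 2.21, 2.70 and 2.07 on a 287 bp junction outside the annotation in *GMR > prp4* RNAi, against 6.88, 4.60, 4.56, 4.57 and 4.51 in *GMR/+* (log2 fold change -1.23 ± 0.24, with 43 and 107 reads in all, given as a description). Summed reads of the muscle markers *Mhc*, *up*, *Act88F* and *Mlc2* were 24561 to 28811 in *GMR > prp4* RNAi and 26157 to 28865 in *GMR/+*, and none of these genes changed in count there.

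Introns of several enzymes and of cytoskeletal genes also fell in *GMR > prp4* RNAi. The 880 bp first intron of *AdenoK*, adenosine kinase (3L, 13021558 to 13022437), had 43.7, 41.7, 27.1, 32.9 and 38.4 reads per 1000 gene reads, against 45.7, 61.0, 64.5, 54.6 and 71.0 in *GMR/+* (log2 fold change -0.69 ± 0.13, adjusted p = 0.00536). The count of *AdenoK* rose (log2 fold change 0.26, adjusted p = 0.0101), and the lowest control library was close to the highest *GMR > prp4* RNAi library. *Hdc*, the enzyme that makes histamine, the photoreceptor transmitter, had 48.3 ± 3.84 on its 284 bp intron in *GMR > prp4* RNAi and 71.2 ± 7.13 in *GMR/+* (log2 fold change -0.56, adjusted p = 0.0042), and its count rose by 0.34 on the log2 scale. Measured against the other junctions of *Hdc* the intron stood at -0.37 on the log2 scale (adjusted p = 1.0), and that of *msps*, given next, at -0.57 (adjusted p = 0.0805). For *msps*, a microtubule polymerase, the 898 bp first intron in the 5′ UTR (3R, 16051177 to 16052074) had 21.4 ± 2.84 and 32.8 ± 2.97 (log2 fold change -0.61, adjusted p = 0.00746) while the count of the gene rose by 0.67 (adjusted p = 2.17e-06). Thus the junction reads of *msps*, 68 to 91 per library in *GMR > prp4* RNAi and 73 to 87 in *GMR/+*, stayed in 1 range while the gene reads rose. The 211 bp intron of CG9317 likewise fell (log2 fold change -0.69, adjusted p = 0.0312) with a gene count that rose by 0.71, and passed in 4 of the 10 fits with a library left out.

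More junction reads in *GMR > prp4* RNAi were also seen elsewhere. A 131 bp junction of CG9776 outside the annotation had 20.9, 15.5, 35.5, 26.0 and 29.4 reads per 1000 gene reads in *GMR > prp4* RNAi, against 7.86, 7.92, 5.96, 4.42 and 5.58 in *GMR/+* (log2 fold change 1.98 ± 0.31). Only 3 to 5 reads per control library stand behind these values, and the other 10 libraries held 73 of its 174 reads, so they are a description. In the library labelled *GMR > prp8* RNAi replicate 14 this junction had 31.1, against 6.98 to 8.50 in the other 4 libraries of that label. A 580 bp intron of *mthl10* (log2 fold change 1.34), with 99 of 198 reads in *GMR > prp4* RNAi, is given as a description as well. The introns of CG33203 (227 bp, 1.18) and CG4662 (412 bp, 1.14) rose without overlap, CG33203 in 5 of the 10 fits with a library left out. *metro*, a scaffold protein of synapses whose gene count fell by 0.57, had a log2 fold change of 0.79 at its 276 bp intron, and *tun* of 0.48 at its 129 bp intron. With the other junctions of the gene as denominator these were 0.12 and 0.19 (adjusted p = 1.0 each), and with a library left out *metro* passed in 2 of 10 fits and *tun* in 8.

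**Figure D3:**
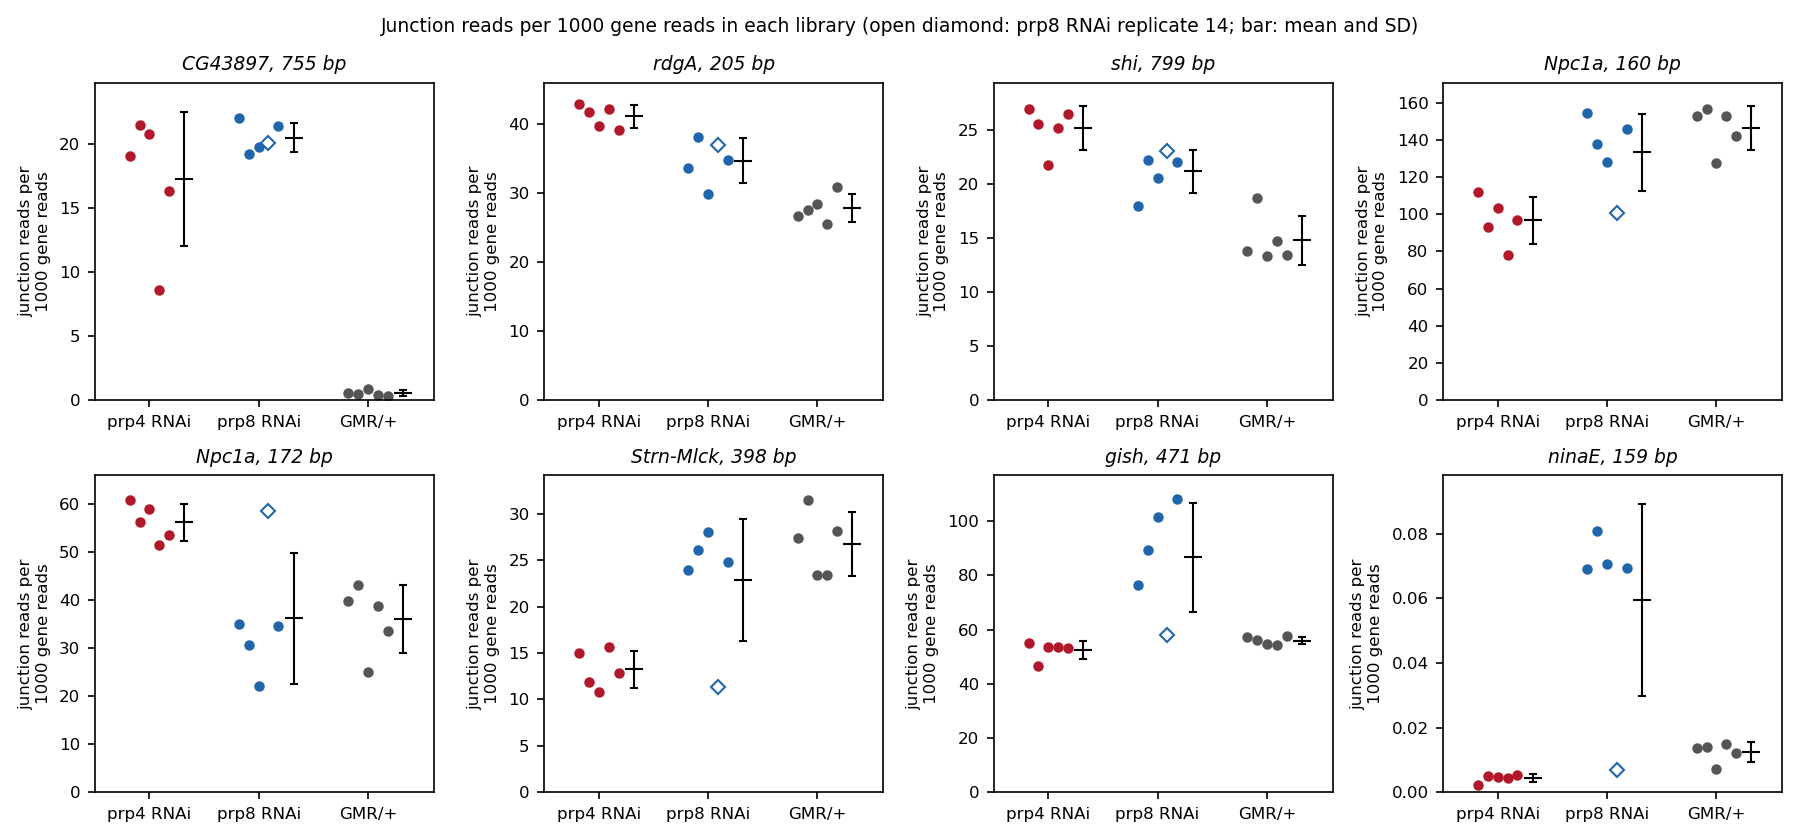
Junction reads per 1000 gene reads in each library for 8 introns, with *GMR > prp4* RNAi, *GMR > prp8* RNAi (open diamond, replicate 14) and *GMR/+* from left to right and bars for the mean and SD. The 755 bp intron of CG43897 is near 0 only in *GMR/+*, and in *Npc1a*, *Strn-Mlck*, *gish* and *ninaE* the open diamond lies away from the other 4 *GMR > prp8* RNAi libraries, on the side of *GMR > prp4* RNAi.

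Beside CG43897 and *shi*, a few introns passed in each knockdown against the controls they share. *RpS4*, a protein of the small ribosomal subunit, has a 144 bp first intron in the 5′ UTR (3L, 13041838 to 13041981). It had 4.93, 3.77, 3.28, 2.42 and 2.73 reads per 1000 gene reads in *GMR > prp4* RNAi and 3.47, 3.26, 2.99, 2.89 and 3.69 in *GMR > prp8* RNAi, against 1.10, 2.06, 2.17, 2.07 and 1.46 in *GMR/+*. Neither knockdown overlapped with the controls, and the log2 fold changes were 0.96 ± 0.17 (adjusted p = 0.00475) and 0.88 ± 0.14 (adjusted p = 0.00017), and 0.92 without replicate 14 (adjusted p = 0.00017). It was the only one to pass of 85 tested introns of ribosomal protein genes (1.18%, against 0.34% and 0.293% of all junctions), whose median log2 fold changes were 0.02 in both comparisons.

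*Pkn*, a protein kinase gene, fell in both knockdowns at its 119 bp intron on 2R. The values were 62.4, 41.7, 48.0, 53.5 and 66.3 reads per 1000 gene reads in *GMR > prp4* RNAi and 53.8, 44.7, 50.3, 54.2 and 43.9 in *GMR > prp8* RNAi, against 69.7, 81.6, 70.5, 81.6 and 72.2 in *GMR/+*. No RNAi library reached the lowest control, and the log2 fold changes were -0.47 ± 0.10 (adjusted p = 0.0205) and -0.60 ± 0.08 (adjusted p = 1.6e-05), and -0.64 without replicate 14. In *GMR > prp4* RNAi the call was kept in 5 of the 10 fits with a library left out. Measured against the other junctions of *Pkn*, it was -0.36 on the log2 scale there (adjusted p = 0.651 from diffSpliceDGE), whereas the call in *GMR > prp8* RNAi was kept with that denominator. A 3130 bp intron starts at the same base, and the 119 bp form made up 49.1 ± 4.56% of the pair in *GMR > prp4* RNAi, 41.6 ± 4.61% in *GMR > prp8* RNAi and 59.5 ± 1.94% in *GMR/+*. For *yps*, a Y-box RNA-binding protein, the 521 bp intron (3L, 12122155 to 12122675) had 65.7 ± 2.39, 62.3 ± 7.56 and 85.2 ± 5.12 reads per 1000 gene reads in *GMR > prp4* RNAi, *GMR > prp8* RNAi and *GMR/+*, with log2 fold changes of -0.37 (adjusted p = 0.0073) and -0.45 (adjusted p = 0.00153), and -0.51 without replicate 14. Measured against the other junctions of *yps* they were -0.17 and -0.34 (adjusted p = 1.0 each).

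Further introns had fewer reads in *GMR > prp8* RNAi. In *Arr2*, the major arrestin of photoreceptors, a 522 bp junction outside the annotation (3L, 8647630 to 8648151) had 3, 6, 3, 8 and 4 reads in *GMR > prp8* RNAi, 12, 19, 12, 22 and 9 reads in *GMR > prp4* RNAi and 19, 11, 14, 19 and 17 reads in *GMR/+*. The *GMR > prp8* RNAi libraries were below all others, with log2 fold changes of -1.71 ± 0.31 against *GMR/+* and of 1.65 ± 0.33 for *GMR > prp4* RNAi over *GMR > prp8* RNAi, or -1.95 and 1.89 without replicate 14. It had 178 reads in all, 24 of them in *GMR > prp8* RNAi, and is given as a description. With fewer than 0.1 reads per 1000 gene reads it was a trace of the reads of *Arr2*. The 986 bp intron of *mim* on 2R, a protein that bends membranes, had 17.6 ± 2.13 reads per 1000 gene reads in *GMR > prp8* RNAi and 30.1 ± 3.45 in *GMR/+* (log2 fold change -0.77, adjusted p = 0.000102, and -0.85 without replicate 14). Other falls without overlap were those of the muscle protein *Mlp60A* (129 bp, -0.90), the epsin *lqf* (239 bp, -0.51), the nicotinic receptor chaperone *RIC-3* (504 bp, -0.31) and the mitochondrial phosphate carrier *Mpcp* (307 bp, -0.20). Without replicate 14 the log2 fold changes were -0.96 for *Mlp60A* and -0.57 for *lqf*, and the adjusted p was 0.0571 for *RIC-3* and 0.0537 for *Mpcp*. With a library left out *Mlp60A* passed in 3, *RIC-3* in 1 and *Mpcp* in 2 of 10 fits. With the other junctions as denominator none of the 4 passed, and *Mpcp* was at -0.04. CG30423 (105 bp, -1.25, and -1.43 without replicate 14) had 206 reads in all, 44 of them in *GMR > prp8* RNAi, and is given as a description.

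The 471 bp intron of *gish*, a casein kinase 1, rose in *GMR > prp8* RNAi and is paired with a 453 bp intron that starts at the same base (3R, 16301352). It had 76.3, 89.4, 102, 58.0 and 108 reads per 1000 gene reads in *GMR > prp8* RNAi and 55.2, 46.7, 53.6, 53.5 and 53.4 in *GMR > prp4* RNAi, against 57.1, 56.2, 54.7, 54.5 and 57.5 in *GMR/+*. The value of 58.0 is that of the library labelled replicate 14, the only one of its label close to the controls. The log2 fold change against *GMR/+* was 0.63 ± 0.13 (adjusted p = 0.00996), and 0.74 without replicate 14 (adjusted p = 0.000122). The 471 bp form made up 34.8 ± 1.75% of the pair in *GMR > prp4* RNAi, 55.7 ± 11.003% in *GMR > prp8* RNAi and 40.1 ± 2.06% in *GMR/+*. The gene count of *gish* rose in both knockdowns, by 0.28 and 0.27 on the log2 scale.

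Other introns also had more reads in *GMR > prp8* RNAi. *Gpdh*, glycerol-3-phosphate dehydrogenase, had 23.7 ± 3.32 reads per 1000 gene reads on its 524 bp intron (2L, 5947333 to 5947856) in *GMR > prp8* RNAi and 16.3 ± 1.99 in *GMR/+* (log2 fold change 0.53, adjusted p = 0.0111, and 0.61 without replicate 14). The DEAD-box helicase gene *Rm62* had 21.8 ± 1.66 and 16.0 ± 1.89 on a 326 bp intron of the 3′ UTR (log2 fold change 0.45, adjusted p = 0.0169, and 0.48 without replicate 14). CG6084 (257 bp, 1.02), CG43340 (619 bp, 0.82) and *fd68A* (136 bp, 0.36) rose as well, without overlap. Without replicate 14 the log2 fold changes of CG6084 and CG43340 were 1.07 and 0.90, and *fd68A* had an adjusted p of 0.057. With a library left out CG6084 passed in 4 and *fd68A* in 0 of 10 fits, and none of these 3 introns nor that of *Rm62* passed with the other junctions as denominator. Introns of CG31710 (460 bp, 0.77), CG6409 (201 bp, 0.49) and *Tsp42Ea* (262 bp, 0.91), which the naming rule does not cover, passed as well, but not with the other junctions as denominator. The junction of *Tsp42Ea* had more reads than its gene, with 30670 per 1000 gene reads in *GMR/+* on average. Its value is therefore not a level of splicing. For CG32165, 3 introns passed with fewer reads per gene read, but the gene count rose by 1.44 on the log2 scale, and replicate 14 did not take part in it, with 1424 reads per 1000 gene reads on the 526 bp intron, against 214 to 260 in the other libraries of its label.

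Between the knockdowns, 5 introns passed without overlap of the groups. Beside *ninaE*, *Arr2* and *gish*, given above, these were a 311 bp junction of CG30118 outside the annotation and a 955 bp intron of *dlg1*. *dlg1*, a scaffold of synapses and septate junctions, had 19.3, 24.1, 26.5, 22.4 and 18.3 reads per 1000 gene reads in *GMR > prp4* RNAi and 10.1, 13.4, 8.95, 11.7 and 14.5 in *GMR > prp8* RNAi (log2 fold change 0.92 ± 0.19, adjusted p = 0.0263, and 0.92 without replicate 14). It passed in 5 of the 10 fits with a library left out. The controls, at 11.5 to 26.5, overlapped with both. CG30118 had 16, 27, 25, 20 and 14 reads in *GMR > prp4* RNAi and 9, 3, 1, 11 and 9 reads in *GMR > prp8* RNAi (log2 fold change 1.64 ± 0.32, or 1.89 without replicate 14), and with 227 reads in all, 33 of them in *GMR > prp8* RNAi, it is given as a description. At 14 of the 18 introns that passed, and at 38 of the 44 that passed without it, the library labelled replicate 14 was nearer to the mean of *GMR > prp4* RNAi than to that of the other *GMR > prp8* RNAi libraries. A clear case, picked with its values known, was a 627 bp junction of *Arr2*. It averaged 0.0790 reads per 1000 gene reads in *GMR > prp4* RNAi, 0.000838 in the other 4 *GMR > prp8* RNAi libraries and 0.0522 in *GMR/+*, and it had 0.111 in replicate 14.

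The clock gene *tim* had 7 intermediate introns. TIM is the partner of PER in the negative limb of the fly clock, and introns of its transcript are known to be retained in part. The 858 bp intron (2L, 3494622 to 3495479), whose retained form is called *tim-cold*, had 13.8, 15.3, 13.6, 14.02 and 12.4 reads per 1000 gene reads in *GMR > prp4* RNAi and 16.2, 19.0, 18.4, 15.9 and 14.2 in *GMR > prp8* RNAi, against 17.5, 17.0, 16.5, 16.4 and 15.2 in *GMR/+*. One *GMR > prp4* RNAi library lay within the range of the controls. The log2 fold changes were -0.26 ± 0.08 (adjusted p = 0.288) and 0.02 ± 0.08 (adjusted p = 0.989), and 0.04 in *GMR > prp8* RNAi without replicate 14, none past the threshold. The 237 bp intron (2L, 3499764 to 3500000), whose retained form is *tim-tiny*, had 5.68, 6.10, 5.28, 7.62 and 7.48 in *GMR > prp4* RNAi and 6.72, 6.35, 7.11, 6.03 and 7.21 in *GMR > prp8* RNAi, against 8.88, 9.05, 9.33, 8.83 and 7.09 in *GMR/+*. Control replicate 5 lay within the range of both knockdowns, and the other 4 controls were above all RNAi libraries. For this intron the log2 fold changes were -0.42 ± 0.11 (adjusted p = 0.146) and -0.37 ± 0.10 (adjusted p = 0.161), adjusted over all junctions, and -0.33 in *GMR > prp8* RNAi without replicate 14 (adjusted p = 0.323).

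The exon that spans the 237 bp intron of *tim* (2L, 3499511 to 3500361) gave a further ratio, in which the exon reads include flanking sequence. There were 31.0 ± 5.22 junction reads per 1000 exon reads in *GMR > prp4* RNAi, 31.6 ± 3.04 in *GMR > prp8* RNAi and 43.0 ± 3.94 in *GMR/+* (SD, n = 5 each). The ranges were 25.8 to 37.1, 28.0 to 35.4 and 36.6 to 47.0, so that *GMR > prp4* RNAi overlapped with the controls and *GMR > prp8* RNAi did not. The count of *tim* rose in *GMR > prp4* RNAi (log2 fold change 0.22, adjusted p = 0.0145), and in *GMR > prp8* RNAi its log2 fold change was 0.11 (adjusted p = 0.317).

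Of the other 5 introns of *tim*, 4 did not pass the threshold in either knockdown. The most used intermediate intron, of 289 bp, had 52.4 ± 3.07 reads per 1000 gene reads in *GMR > prp4* RNAi, 51.6 ± 2.42 in *GMR > prp8* RNAi and 52.1 ± 2.32 in *GMR/+*. The introns of 380, 292 and 964 bp had log2 fold changes of 0.09, 0.25 and 0.03 in *GMR > prp4* RNAi and of -0.05, 0.06 and 0.22 in *GMR > prp8* RNAi, none past the threshold. A 189 bp junction outside the annotation that starts with the 289 bp intron had 8, 8, 8, 9 and 6 reads in *GMR > prp4* RNAi, 18, 24, 23, 5 and 26 reads in *GMR > prp8* RNAi and 7, 4, 7, 5 and 4 reads in *GMR/+*. Of its 162 reads 96 came from *GMR > prp8* RNAi and 66 from the other 10 libraries, so it passed the read minimum through the genotype where it was high. As a description, its log2 fold change in *GMR > prp8* RNAi was 1.70 ± 0.35, and 1.98 without the library labelled replicate 14, which had 5 reads. No other of the 36 tested introns of clock genes passed in any comparison.

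**Figure D4:**
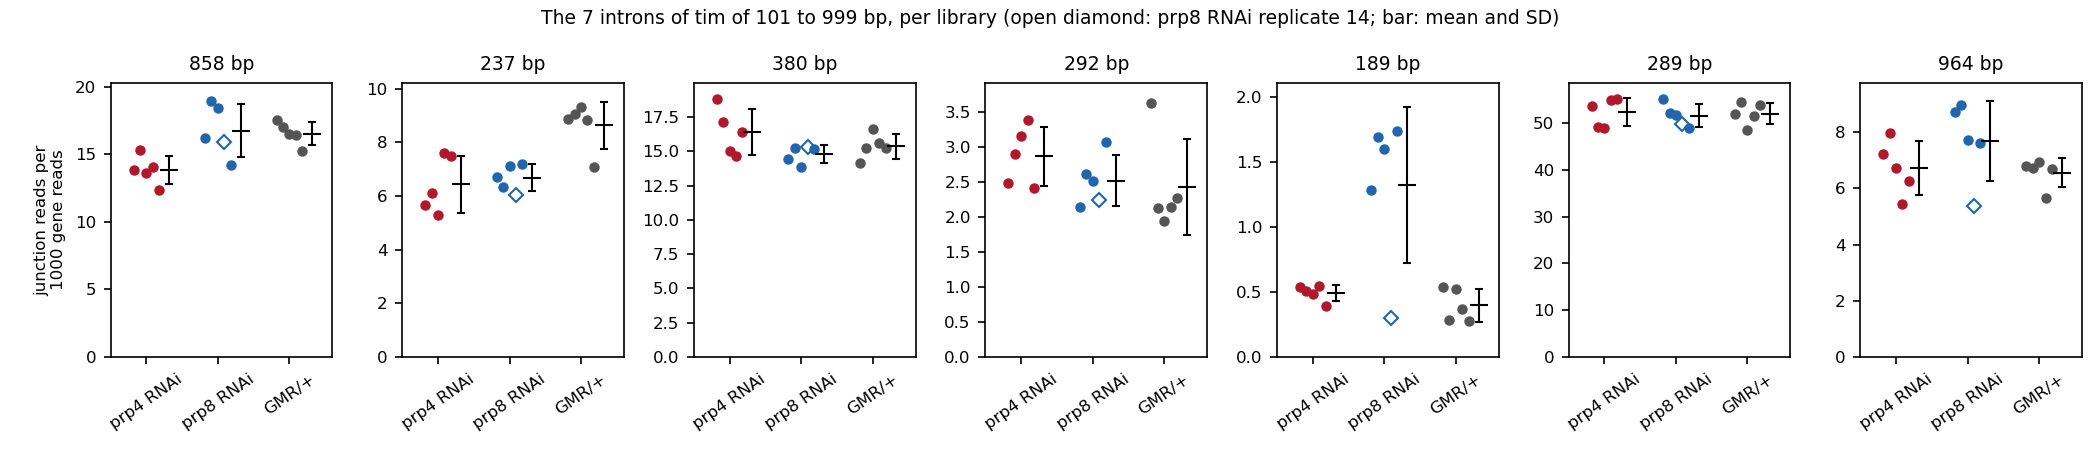
Junction reads per 1000 gene reads for the 7 intermediate introns of *tim* in each library, with *GMR > prp4* RNAi, *GMR > prp8* RNAi (open diamond, replicate 14) and *GMR/+* from left to right and bars for the mean and SD. The 237 bp intron averages 6.43, 6.68 and 8.63 in the 3 genotypes, with 1 control library at 7.09, while the 289 bp intron averages 52.4, 51.6 and 52.1.

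Other groups of genes were chosen with earlier results known, and 0.34% of all junctions passed in *GMR > prp4* RNAi, 0.293% in *GMR > prp8* RNAi and 0.176% between the knockdowns. Among 109 tested introns of phototransduction genes 2 (1.83%) passed in *GMR > prp4* RNAi (*rdgA* and *ninaE*), 2 (1.83%) in *GMR > prp8* RNAi (*ninaE* and *Arr2*) and 3 (2.75%) between the knockdowns, the third being a 562 bp intron of *chp*. Those of *ninaE* and *Arr2* are the junctions given above as a description. The median log2 fold changes over the 109 introns were -0.03 in *GMR > prp4* RNAi and 0.00062 in *GMR > prp8* RNAi. Of 83 introns of synaptic genes 2 (2.41%) passed in *GMR > prp4* RNAi, both of *shi*, and 1 (1.2%) in *GMR > prp8* RNAi, with medians of -0.0093 and 0.0033. None of 157 introns of ion channel genes passed with edgeR in any comparison, nor with DESeq2 or limma-voom, and 12, 7 and 7 had an unadjusted p under 0.05 in *GMR > prp4* RNAi, in *GMR > prp8* RNAi and between the knockdowns. Of genes for splicing regulators, such as SR proteins, 77 introns were tested and none passed with any of these tools, with 8 at an unadjusted p under 0.05 in each of the 3 comparisons. None of 8 introns of genes for spliceosome proteins passed either, *Prp8* with its introns of 280 and 223 bp among them, and 1, 0 and 0 had an unadjusted p under 0.05. In *trol*, the perlecan gene, none of 16 intermediate introns passed with any of the tools, and 4, 0 and 1 had an unadjusted p under 0.05. The log2 fold changes ran from -0.65 to 1.03 in *GMR > prp4* RNAi (lowest adjusted p = 0.288) and from -0.43 to 0.39 in *GMR > prp8* RNAi (lowest adjusted p = 0.756).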

How the data were processed

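RNA-Seq libraries of fly heads, 5 per genotype, were grouped by the sample labels. The authors aligned reads to BDGP6 with STAR 2.5.3a, removed ribosomal and mitochondrial reads and resampled libraries to equal depth with PORT 0.8.2a-beta (Ensembl release 88). The deposited values used here are whole counts of reads on junctions, genes and exons, without scaling. Reads that count for several genes are left out of the gene counts, which affects genes that overlap. Positions were taken from Ensembl release 115.

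Intermediate introns, gene lists and tests were chosen with earlier results of these data known. Junctions listed with 1 gene and at least 150 reads (23237 in the gene table) were tested with the quasi-likelihood test of edgeR 4.0.16 in R 4.3.3, with the log of the gene count plus 0.5 as offset, each comparison on its own 10 libraries, and Benjamini-Hochberg adjustment over all junctions at 0.05. Fold changes are the genotype named over *GMR/+*, or *GMR > prp4* RNAi over *GMR > prp8* RNAi. Gene counts were tested with edgeR after filterByExpr and TMM. P-values measure the spread between libraries of a label. Measures over all introns were computed per library in Python 3.11.15 with numpy 2.4.6 and pandas 2.3.3, with a pseudocount of 0.5 except in the pooled ratio, and are given with no p, since the introns were chosen with results known. A planned comparison of weaker and stronger 5′ splice sites was not run.

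Named introns are, among those past the threshold whose groups did not overlap, up to 10 with the largest rise and 10 with the largest fall against *GMR/+* in each knockdown (5 and 5 between the knockdowns), 1 per gene, the introns of *tim*, *trol*, *Npc1a* and *Prp8*, and up to 4 introns per list. Most introns from the lists are given only in counts and medians, and 1 further intron is not reported here. The scripts were tested on simulated counts. Alternatives were the other junctions of the gene as denominator (diffSpliceDGE), DESeq2 1.42.0, limma-voom (limma 3.58.1), TMM factors, minimums of 15 and 500 reads, annotated introns, all 15 libraries in one fit, a log2 fold change of at least 1, and each library left out. Added after seeing the data were a median-centred scaling, the removal of genes counted below their junction, gene counts without *GMR > prp8* RNAi replicate 14, a separate count of introns that reached the read minimum mainly through their higher group, and the measure on spanning exons with its alternatives. Figures were drawn with matplotlib 3.10.9.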

Additional observations from a re-analysis of the deposited data

Results flagged for a closer look

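In 19 of 228 groups of 5 libraries 1 library lay far from the other 4, by a gap of more than 0.71 of the range of the group, where chance gives about 1 in 20. Values are junction reads per 1000 gene reads unless stated. In the library labelled *GMR > prp8* RNAi replicate 14 these were the 131 bp intron of CG9776 (31.1), the 398 bp intron of *Strn-Mlck* (11.4) and the 276 bp intron of *metro* (76.2, against 38.9 to 43.1 in the other 4). In replicate 11 of the same genotype they were the 307 bp intron of *Mpcp* (181), the 898 bp intron of *msps* (31.0) and the log2 difference between introns of 500 bp or more and introns under 200 bp (-0.53).

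In *GMR > prp4* RNAi, replicate 9 was low at the 953 bp intron of *ATPsyn-beta* (12.6) and high at the 227 bp intron of CG33203 (27.6) and the 280 bp intron of *Prp8* (53.9), and replicate 6 was low at *Mpcp* (167).

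In *GMR/+*, replicate 1 was high at *Rbp9* (589 bp, 17.0), *Zasp52* (287 bp, 6.88) and *tim* (292 bp, 3.63), and replicate 2 at *shi* (799 bp, 18.8). Replicate 3 was high at CG33203 (227 bp, 13.0). Replicate 4 was high at *snf* (425 bp, 492) and low at *tim* (964 bp, 5.67), and replicate 5 was low at *msps* (898 bp, 27.6) and at the 237 bp intron of *tim* (7.09).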

How the results depend on the processing

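No paired analysis was possible because the replicate numbers run from 1 to 15 and no number is shared between genotypes. Of the introns called, 14 of 34 in *GMR > prp4* RNAi, 8 of 31 in *GMR > prp8* RNAi and 0 of 18 between the knockdowns passed with each library left out and under every alternative that tested them, the minimum fold change aside. Some introns were tested under only 7 or 8 of these 9 fits, since they had under 500 reads or no annotation. Counts below are for *GMR > prp4* RNAi and *GMR > prp8* RNAi against *GMR/+*, and for the knockdowns. With the other junctions of the gene as denominator 20, 14 and 14 introns passed, with DESeq2 30, 20 and 3, with limma-voom 25, 14 and 2, with a minimum of 500 reads 22, 19 and 3, and with a size of 1 or more on the log2 scale asked for as well 13, 12 and 8. A minimum of 15 reads gave 34 between the knockdowns, and annotated introns only gave 20 in *GMR > prp8* RNAi. With a library left out the counts ran from 21 to 39, from 14 to 40 and from 4 to 44. Without *GMR > prp8* RNAi replicate 14, the gene counts of 219 host genes passed in *GMR > prp8* RNAi and of 283 between the knockdowns.

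With the other junctions as denominator, 5 log2 fold changes turned in sign: CG32165 526 bp (0.30) and 125 bp (0.096) and *Tsp42Ea* 262 bp (-0.0085) in *GMR > prp8* RNAi, and CG32165 526 bp (-0.0752) and *Tsp42Ea* (0.0313) between the knockdowns. The count of CG32165 had itself changed in *GMR > prp8* RNAi.

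Differences in the pooled log2 ratio were -0.0207, 0.0047 and -0.0254 without the 100 genes with the most reads, and 0.0044 (*GMR > prp8* RNAi) and -0.0125 (knockdowns) as medians over introns. The difference between longer and shorter introns was -0.00114 (*GMR > prp4* RNAi) and -0.0141 (knockdowns) with a minimum of 500 reads and 0.0278 (*GMR > prp8* RNAi) as a median. For introns with a spanning exon the differences were -0.14, 0.0382 and -0.18 as medians, -0.0604 in *GMR > prp4* RNAi for annotated introns, -0.0586 in *GMR > prp4* RNAi and -0.0052 between the knockdowns with exons outside the annotation as well, and -0.0688 for *GMR > prp8* RNAi with a minimum of 500 reads. The cause of these shifts was not tested. Low read numbers limit single introns, since an intron with fewer than 300 reads had a median of 14.1 reads per library.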
